A study of Mus musculus with 4 samples.

Results

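The genes described here are 8 transcripts that published work, most of it in human cancer cells, has reported as targets of the microRNA miR-7: Egfr, Irs1, Irs2, Pak1, Pik3cd, Rps6kb1, Psme3 and Klf4. They were found by gene name in the annotation of the authors' comparison tables, with the listed synonyms as a fallback that was needed for none of those found. A row of the array stands for 1 cDNA sequence, and 15 of the 35411 rows belonged to these genes. They covered 7 of the 8, among 20735 genes named on the array, and Irs2 had no row. RNA labelled as that of mouse splenic CD4+ T cells of the FVB/N strain was hybridised to 4 NimbleGen arrays with the dye Cy3, 1 array for each of 4 groups. The groups were naive CD4+CD62Lhi cells of the wild type, the same cells under the label miR-7 deficiency, and cells of either genotype labelled as activated in vitro for 48 hours with antibodies to CD3 and CD28 and with IL-2. The column names of the authors' tables abbreviate the deficiency as KD. The sources used here give neither how it was made, nor in which cells it acts, nor how many mice gave each RNA. Each sample is labelled as standing for 3 biological replicates, yet each group has 1 array, so every difference below lies between 2 arrays with no replicate check and carries no p-value.

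A microRNA guides an Argonaute protein to messenger RNAs, mostly through pairing of its seed, bases 2 to 8, with sites in the 3' untranslated region, and pairing lowers the stability or translation of the messenger. miR-7 is a conserved microRNA that is abundant in neurons and endocrine cells, and the genes studied here include a growth factor receptor, insulin receptor adaptors and kinases of the PI3K and S6 kinase route. Loss of a microRNA is often examined through such target messengers, and the comparison of interest is miR-7 deficient against wild type within each state. The 2 mature forms are printed because they share the seed that defines a miR-7 target. Capitals mark the seed, and the sequences are those of RefSeq on build GRCm38.p6.

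mmu-miR-7a-5p: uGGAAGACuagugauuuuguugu

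mmu-miR-7b-5p: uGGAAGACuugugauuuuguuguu

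The 7a form is encoded by Mir7-1 (mature sequence at chr13:58392841-58392863, minus strand) and by Mir7-2 (chr7:78888295-78888317, plus strand), and the 7b form by Mir7b (chr17:56243017-56243040, plus strand). Counted from the 5' end, the 7b form differs from 7a by A10U, outside the seed, and it is 24 bases long against 23. The letters that pair with the shared seed are GUCUUCC. None of the 3 loci had a row on the array, so the microRNA itself was not measured and the genotype labels could not be checked by it.

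Values are the authors' normalized intensities on a linear scale. As a floor, each array was given the 95th percentile of its own 667 rows for taste, odorant, trace amine and vomeronasal receptor genes, which lymphocytes are not known to use. It lay at 984 and 985 for the naive pair (wild type, then miR-7 deficient) and at 720 and 604 on the activated-labelled arrays. Below it a value cannot be told from background. A difference with 1 side below the floor is given as a bound, and 2-fold was the fixed limit for calling genes apart. The activated-labelled arrays went against their label. The 16 T cell markers summed to 31207 and 37614 for the naive pair and to 6887 and 8732 for the activated-labelled arrays, where 3 and 2 of them were above the floor. The 12 neuron markers summed to 2865 and 2683 on the naive arrays, with 0 above the floor, and to 43837 and 69212 on the activated-labelled arrays, with 9 and 10 above it. Of 7 oligodendrocyte markers, all 7 were above the floor there, and no marker read 0 on any array. Of 9 measured activation markers, such as Il2ra and Cd69, 1 was above the floor on each activated-labelled array. Directions drawn from these 2 arrays hold for these RNAs and not for a verified state of T cells. In bulk RNA, fewer cells of a type and less RNA per cell cannot be told apart.

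**Figure D1:**
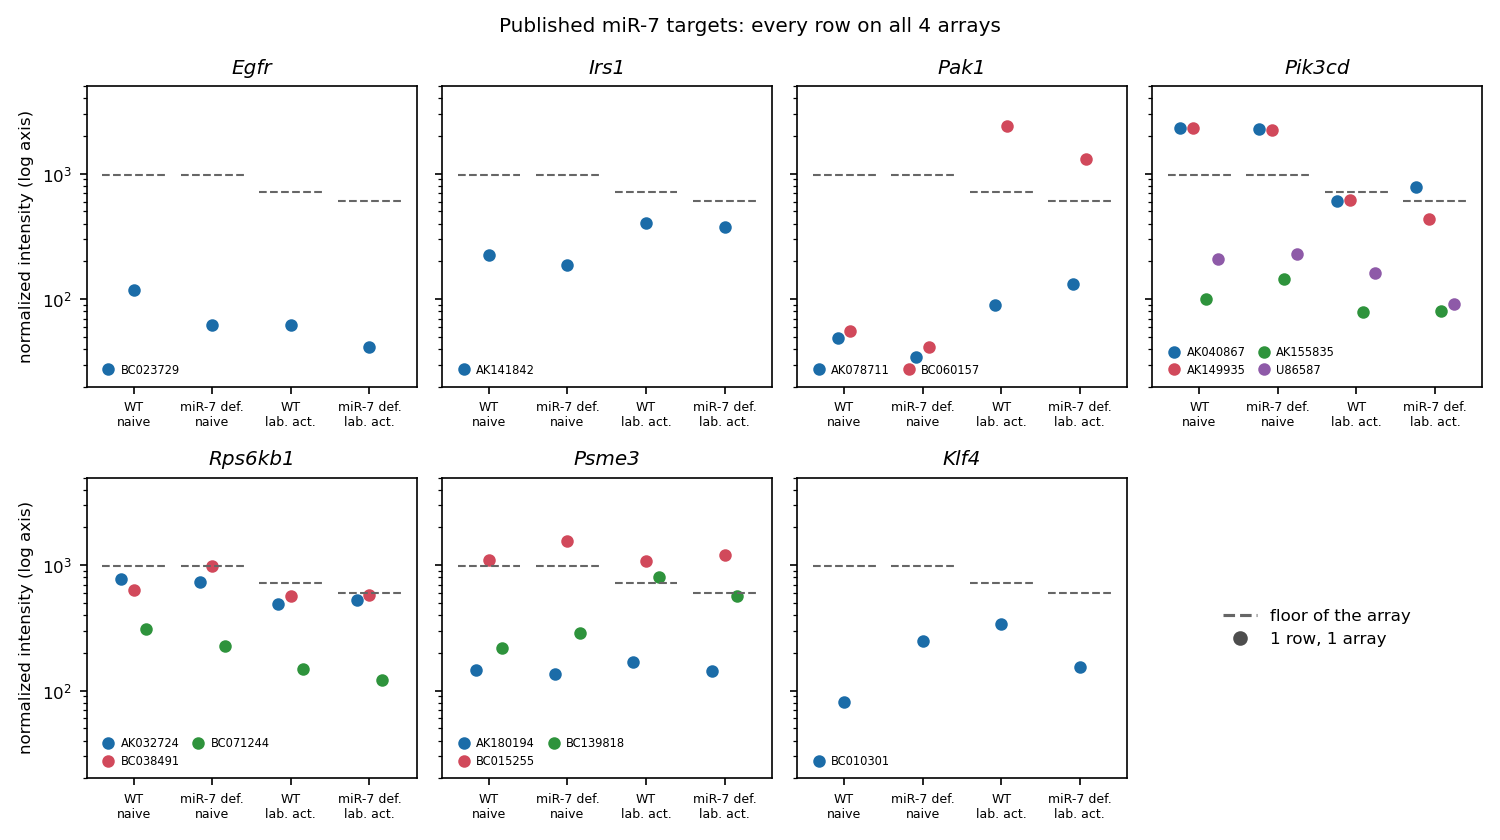
Normalized intensity (log axis) of each of the 15 rows of the 7 measured genes on the 4 arrays; each point is 1 row on 1 array, and the dashes are the floor of that array (lab. act. means labelled activated, def. means deficient). Egfr, Irs1 and Klf4 lie below every floor, Psme3 row BC015255 lies above all 4, and Pak1 row BC060157 is above the floor on the activated-labelled arrays alone.

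Of the 15 rows, 9 were below the floor on all 4 arrays, 6 were above it on at least 1 array, and 1 was above it on all 4. By gene, Pik3cd, Psme3, Pak1 and Rps6kb1 were above the floor somewhere and the other 3 nowhere. A gene with several rows is represented in counts by the row with the highest mean log2 intensity. Chromosome positions below are those of the authors' deposited tables, for which the sources used here name no genome build.

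Egfr, the epidermal growth factor receptor, is a receptor tyrosine kinase of epithelial and glial cells and the best known miR-7 target in human cells. Its row BC023729 (chr11:16652245-16787661) read 118 (wild type) and 62.6 (miR-7 deficient) among the naive arrays, against 62.4 and 41.4 for the activated-labelled arrays in the same order. The 4 values were 6.36% to 12.03% of the floor of their array, so the transcript was not detected and no genotype difference can be read from it. Both miR-7 deficient values lay under their wild type counterparts, at a level where the array does not tell signal from background.

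Irs1 and Irs2 are adaptors that carry signals from the insulin and insulin-like growth factor receptors to PI3K. Irs1 row AK141842 (chr1:82229681-82233665) read 224 and 188 for the naive pair (wild type, then miR-7 deficient) and 404 and 373 for the activated-labelled arrays. The values reached 22.7% of the floor on the naive arrays and 61.8% on the activated-labelled arrays, and none was above it. The genotypes lay close together in each state, and the activated-labelled arrays read higher than the naive arrays in both genotypes. Irs2 cannot be described, since no row carried its name or listed it as a synonym.

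Pik3cd encodes p110 delta, the PI3K catalytic subunit of leukocytes, which acts below the antigen and costimulatory receptors of T cells. Row AK040867 (chr4:149023276-149075706) read 2294 (wild type) and 2267 (miR-7 deficient) among the naive arrays, both above the floor, a log2 difference of -0.02. Row AK149935 (chr4:149023276-149072798), which ends at the same 3' position, read 2329 and 2237, a log2 difference of -0.06. In both bright rows the naive genotypes lay close together, with wild type the higher by a small margin. The other 2 rows of the gene were dim, below the floor on all 4 arrays. Row AK155835 (chr4:149027915-149075699) read 101 and 145, then 78.8 and 79.9 in the activated-labelled pair. Row U86587 (chr4:149023276-149037425) read 208 and 228, then 162 and 91.1.

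On the activated-labelled arrays, Pik3cd row AK040867 read 603 in wild type, below the floor, and 780 in miR-7 deficient, above it, a log2 difference of at least 0.12. Row AK149935 read 612 and 433, both below the floor and in the opposite order. The rows of the gene thus gave no common direction between these 2 arrays. Markers of B cells, which also use Pik3cd, summed to 16626 and 26812 on the naive arrays over 9 genes, higher in miR-7 deficient, while myeloid markers summed to 4527 and 7661 over 13. The largest rises in the myeloid sum were those of S100a9 (804 and 2563) and S100a8 (347 and 1210). The part of these cells in the Pik3cd values was not tested.

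Rps6kb1 encodes the p70 S6 kinase, which mTOR complex 1 activates and which phosphorylates ribosomal protein S6. Row BC038491 (chr11:86316079-86358259) read 630 (wild type) and 992 (miR-7 deficient) among the naive arrays, against 566 and 578 for the activated-labelled arrays. The miR-7 deficient naive value stood at 100.7% of its floor and the wild type value at 64.0%, which leaves a bound of 0.01 on the log2 scale in favour of miR-7 deficient. Row AK032724 (chr11:86316041-86358276), which covers nearly the same stretch, read 781 and 735 for the naive pair and 494 and 528 for the activated-labelled arrays, all below the floor and with the naive order turned round. Row BC071244 (chr11:86331656-86358266) read 309 and 228, then 149 and 122, again lower in the miR-7 deficient naive array. Of 3 rows, 1 was higher in miR-7 deficient naive cells and 2 were lower, so Rps6kb1 showed no direction that its rows share.

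Pak1 is a serine/threonine kinase activated by Rac and Cdc42 that regulates the actin cytoskeleton and is abundant in brain. Row BC060157 (chr7:104991448-105060891) read 55.2 and 41.5 for the naive pair (wild type, then miR-7 deficient), at background, and 2397 and 1320 on the activated-labelled arrays, above both floors. The miR-7 deficient value there was 1.82-fold lower, a log2 difference of -0.86, which was short of the 2-fold limit and opposite in sign to Psme3, the other member above both floors. Row AK078711 (chr7:104937050-105003422) read 48.8 and 34.8 for the naive pair and 89.4 and 133 for the activated-labelled arrays, below every floor. The 2 rows overlap by 11.975 kb, and the dim one stops 57.5 kb short of the 3' end that the bright one reaches. Like the bright row, the neuron markers above a floor were so on the activated-labelled arrays and on no naive array. Between the activated-labelled arrays, the neuron markers had a median log2 difference of 0.39 over the 10 above a floor, and the oligodendrocyte markers one of -0.26 over 7. The neuron markers went both ways: with no floor applied, 9 were higher and 3 lower in miR-7 deficient. Slc17a7 read 902 and 15853, a difference of 4.13, and Gad1 read 2332 and 1292, a difference of -0.85. The part of these cell types in the Pak1 difference was not tested.

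Psme3 encodes PA28 gamma (REG gamma), a nuclear cap that activates the 20S proteasome without ubiquitin or ATP. It was the member measured above the floor on all 4 arrays. Row BC015255 (chr11:101177566-101184844) read 1109 (wild type) and 1546 (miR-7 deficient) among the naive arrays, a log2 difference of 0.48, or 1.39-fold. On the activated-labelled arrays it read 1074 and 1206, a log2 difference of 0.17. Both differences pointed to higher values in miR-7 deficient, and both were under the 2-fold limit. For scale, the log2 differences of different rows of 1 gene, measured above both floors on the same naive arrays, had a pooled SD of 0.34 over 963 rows of 396 genes. On the activated-labelled arrays that SD was 0.35 over 2041 rows of 859 genes. It describes how probe sets of a gene differ within the arrays and not how replicate samples would.

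The other rows of Psme3 did not all follow. Row BC139818 (chr11:101177626-101184162) read 219 and 291 on the naive arrays, below the floor and higher in miR-7 deficient, and 803 and 567 on the activated-labelled arrays, where it was above the wild type floor alone and lower in miR-7 deficient by at least 0.41 on the log2 scale. Row AK180194 (chr11:101177564-101178527) covers 0.964 kb at the 5' end of the gene and stayed between 135 and 168 on the 4 arrays. Rows BC015255 and BC139818 end 0.682 kb apart. They stood in opposite genotype order on the activated-labelled arrays.

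Klf4 is a zinc finger transcription factor of epithelia and myeloid cells, and in T cells it restrains proliferation. Its row BC010301 (chr4:55540771-55545212) read 81.9 (wild type) and 250 (miR-7 deficient) among the naive arrays, against 341 and 154 for the activated-labelled arrays. In naive cells miR-7 deficient was the higher array and in the activated-labelled arrays the lower one. Every one of the 4 values was below its floor, at 8.33% to 47.4% of it. Of rows below both floors, 18.4% were 2-fold apart between the naive arrays and 14.5% between the activated-labelled arrays. Among the receptor rows that set the floor the shares were 20.8% and 19.2%. The Klf4 values are therefore given as read, and no genotype difference is drawn from them.

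**Figure D2:**
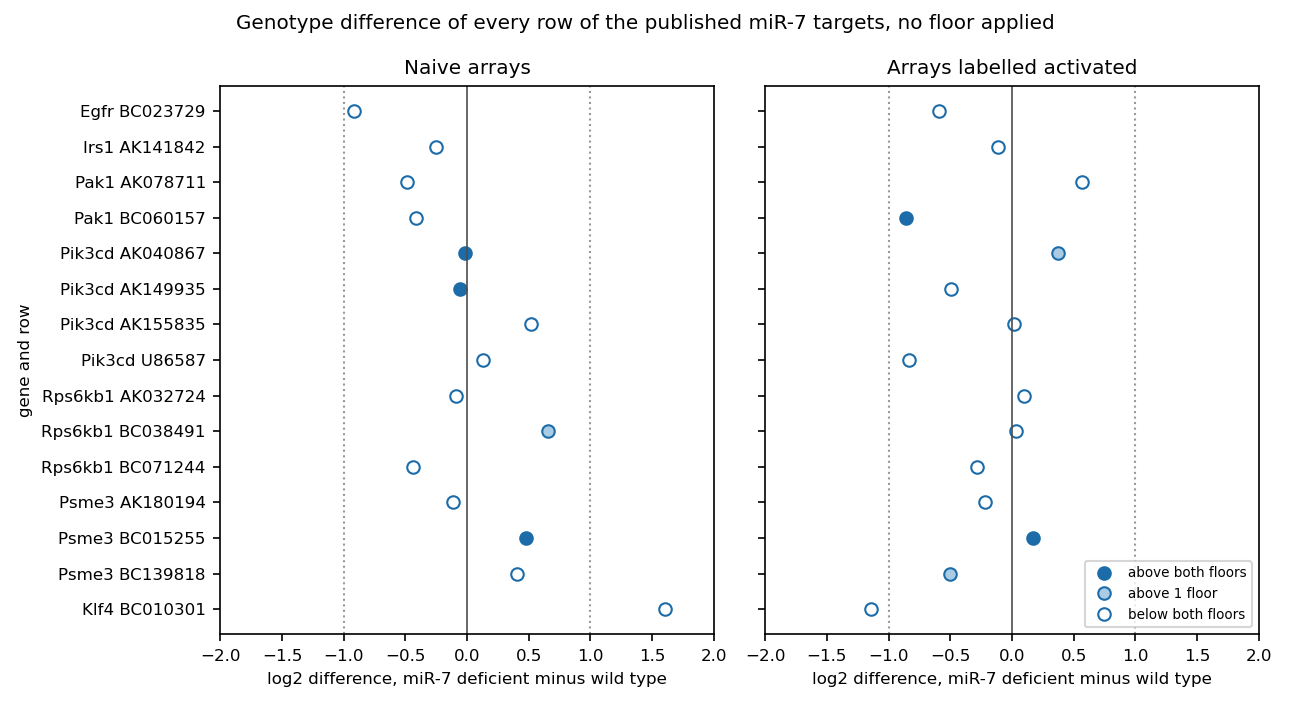
Log2 difference, miR-7 deficient minus wild type, of each of the 15 rows between the naive arrays (left) and between the activated-labelled arrays (right), with no floor applied; filled points are above both floors, pale points above 1, open points below both, and the dotted lines mark 2-fold. The points beyond the dotted lines are those of Klf4, which is open in both panels, and the filled points lie between -0.86 and 0.48.

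Counted together, 3 of the 7 measured genes were above the floor of a naive array and 0 of the 3 were 2-fold apart between genotypes, against 2.83% of the 3461 genes that passed at least 1 naive floor. Of the genes past 2-fold, 70 were higher and 28 lower in miR-7 deficient, or 71.4% higher. That split depended on scaling: the share higher was 61.6% after centring on the median difference, 31.6% once an intensity trend was taken out and 32.6% with separate quantile normalization of the pair. The differences of the 3 members were -0.02 for Pik3cd, at least 0.01 for Rps6kb1 and 0.48 for Psme3, with a median of 0.01 beside 0.13 over the 3461 genes. The bound of Rps6kb1 could take 1 sign only, and its value was 0.00 after centring, trend removal or normalization of the pair alone. Psme3 stayed between 0.32 and 0.48 under the scalings tried.

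Between the activated-labelled arrays, 3 of the 7 genes were above a floor and 0 of the 3 were 2-fold apart, against 4.60% of 5721 genes. The members' differences were -0.86 for Pak1, at least 0.12 for Pik3cd and 0.17 for Psme3, a median of 0.12 beside 0.00 over the 5721 genes. That median is the bound of Pik3cd, which could take 1 sign only, and Pik3cd row AK149935 stood in the opposite order. A count of 0 among 3 genes is near what shares of 2.83% and 4.60% would leave and says nothing particular about these genes. Without a floor, over all 15 rows, 6 were higher and 9 lower in miR-7 deficient in each state, with medians of -0.06 in naive cells and -0.22 on the activated-labelled arrays. By gene, 3 were higher and 4 lower in each state, with medians of -0.02 and -0.11. Over all genes, 10837 were higher and 9896 lower in naive cells (median 0.04). On the activated-labelled arrays 10237 were higher and 10498 lower (median -0.01). Of the 15 rows, 9 were below every floor, so no direction is drawn from this split. Over all rows, 17.3% and 13.5% were 2-fold apart in the same comparisons, and 1 of the 15 member rows was in each, that of Klf4.

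**Figure D3:**
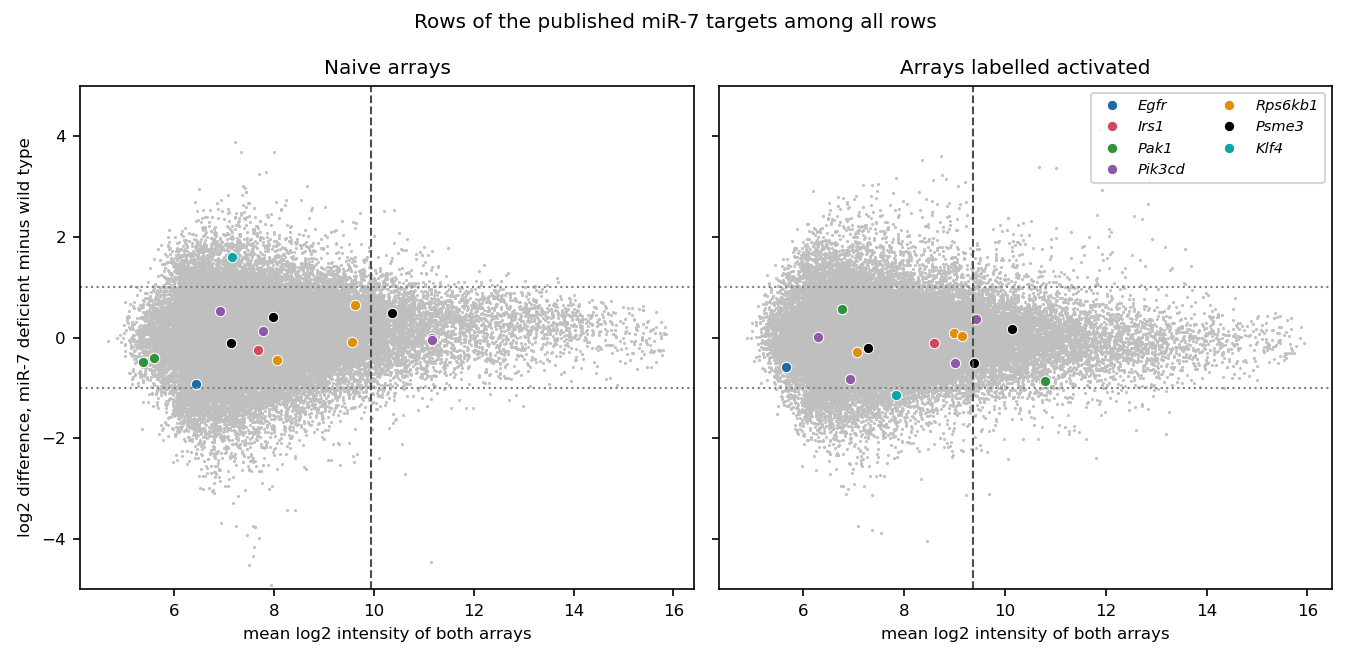
Log2 difference, miR-7 deficient minus wild type, against the mean log2 intensity of both arrays, for all 35411 rows (grey) and for the rows of the 7 measured genes (coloured); the dashed line is the mean log2 floor of both arrays and the dotted lines mark 2-fold. The grey cloud is wide on the left of the dashed line and narrow on its right, and most member rows, Klf4 and Egfr among them, lie in the wide part.

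The genotype differences of the members were also set side by side across the states, although 1 array per group allows no test of a change. Of the 4 members above a floor, 0 had differences that lay 2-fold apart between the states. For Psme3 row BC015255, the member row above both floors in both states, the difference was 0.48 in naive cells and 0.17 on the activated-labelled arrays. That change was smaller than the pooled SD between rows of a gene (0.34 and 0.35). Pak1 could not be compared across states, as its naive values were at background, and Pik3cd kept differences of -0.02 and at least 0.12. Rps6kb1 could not be compared either, since it was below both floors on the activated-labelled arrays.

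Between the states, Pak1 was higher and Pik3cd lower on the activated-labelled arrays in both genotypes, while Psme3 differed by less than 2-fold. Pak1 row BC060157 was at least 2.44-fold higher than on the naive array in wild type and at least 1.34-fold higher in miR-7 deficient. Its naive values were below the floor, so these bounds could take 1 sign only. Pik3cd row AK040867 was at least 3.19-fold lower in wild type and 2.91-fold lower in miR-7 deficient, and row AK149935 at least 3.24-fold and 3.70-fold lower. Psme3 row BC015255 differed by -0.05 and -0.36 on the log2 scale, and the first of these became 0.10 after centring. Rps6kb1 row BC038491 was lower by a bound of -0.71 in miR-7 deficient and below both floors in wild type. With the 2-fold limit, 2 of 3 members were apart in wild type and 1 of 4 in miR-7 deficient, against 23.3% of 5132 and 25.9% of 5825 genes. The 2 in wild type were Pak1 and Pik3cd, and both are bounds that could take 1 sign only. Of the genes past 2-fold in wild type 744 were higher and 452 lower, or 62.2% higher, and centring moved this share to 73.5%. In miR-7 deficient 646 were higher and 863 lower, or 42.8% higher, and 51.3% after centring.

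These directions ran beside those of the cell markers. With the floor applied, 8 of 11 T cell markers were 2-fold lower on the activated-labelled array in wild type and 11 of 13 in miR-7 deficient, with median log2 differences of -1.22 and -1.60, while Pik3cd stood at a bound of -1.67 and a measured -1.54. Of the neuron markers, 6 of 9 and 7 of 10 were 2-fold higher, with medians of 2.19 and 2.02. The neuron markers and Pak1 were below the naive floors, so these are bounds, and those of Pak1 were 1.28 and 0.42. The median over the 5132 and 5825 genes was 0.00 in both genotypes, and -0.17 and -0.13 over all genes without a floor. The part of these cell types in the state difference of the members was not tested.

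**Figure D4:**
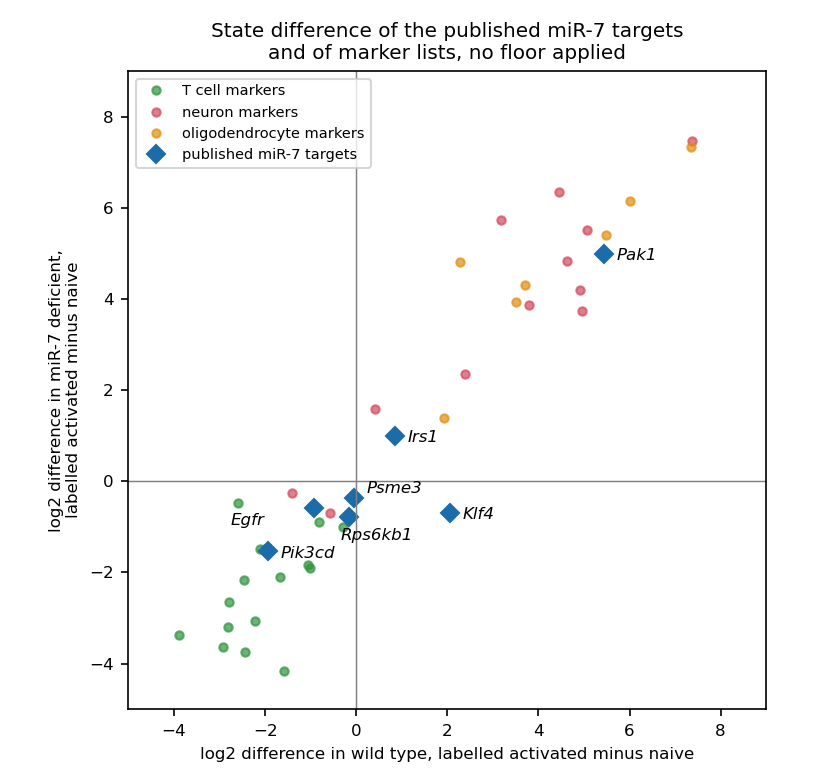
Log2 difference, activated-labelled minus naive, for wild type (horizontal axis) and for miR-7 deficient (vertical axis), with no floor applied, for the 7 measured genes (diamonds, 1 row per gene) and for the genes of 3 marker lists (circles). Pak1 lies among the neuron and oligodendrocyte markers, Pik3cd among the T cell markers, and Klf4 has opposite signs in the 2 genotypes. The naive values of Pak1, Klf4 and the neuron markers are below the floor, so their distance from 0 is not a measured size.

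The neighbours of the members in their pathways were taken from lists written with earlier results of these data known. In the receptor arm around Egfr and the insulin adaptors, 19 of 22 listed genes had a row. Of these, 2 were above the floor of a naive array and 4 above that of an activated-labelled array, and none was 2-fold apart between genotypes, against 2.83% and 4.60% of genes. The heparin-binding ligand Hbegf read 1700 (wild type) and 1160 (miR-7 deficient) on the activated-labelled arrays, a log2 difference of -0.55. The adaptor Shc1, which links receptors to Ras, read 1125 and 1058 in naive cells, a difference of -0.09. Grb2, the other gene of this list above a naive floor, read 978, below the floor, and 1406 in row D85748. That is a bound of 0.52, which could take 1 sign only. Its row AK153557 read 966 and 1345, in the same order, and row BC052377 read 239 and 254, below both floors. The receptors Erbb2, Erbb4, Insr and Igf1r were below the floor on all 4 arrays, as Egfr was.

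In the PI3K, AKT and mTOR route all 32 genes had a row, and 8 were above the floor of a naive array. None of the 8 was 2-fold apart between naive genotypes, against 2.83% of genes above a naive floor, and their median was 0.22 beside 0.13 over those 3461 genes. Pik3ap1, an adaptor that links receptors of B cells and other leukocytes to PI3K, came closest: it read 900.1 in wild type, below the floor, and 1935 in miR-7 deficient, a log2 difference of at least 0.98 that does not exclude 2-fold. Another Pik3ap1 row, BC113141, read 791 and 471, both below the floor and in the opposite order. Akt1, the kinase that PI3K products recruit to the membrane, read 1174 and 1487, a log2 difference of 0.34. Rps6, the substrate of the S6 kinase, read 17015 and 19436, a difference of 0.19, and Pdcd4, a translation inhibitor that S6 kinase marks for degradation, read 2836 and 3111. Foxo1, a transcription factor that AKT keeps out of the nucleus, read 4150 and 4963. Of the 8, Tsc2 and Pdpk1 were lower in miR-7 deficient. Tsc2 row AK187383 read 5746 and 4535, a difference of -0.34. Its row AK163991, also above both floors, read 2382 and 2068, a difference of -0.20. Row AK143799 read 871, below the floor, and 1388, in the opposite order. Row AK148072 read 161 and 388, also in the opposite order but below both floors. Pdpk1 row AK143283 read 1210 and 571, the second below the floor, a bound of -0.30. Between the activated-labelled arrays 13 were above a floor, and Gsk3b, a kinase inhibited by AKT, was the 1 of 13 past 2-fold, against 4.60% of genes. Its row BC060743 read 1859 (wild type) and 822 (miR-7 deficient), a difference of -1.18, while its row BC006936 read 1199 and 845, a difference of -0.50. The median of the 13 was 0.05.

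Among the relatives and partners of Pak1, 17 genes had a row, 6 were above the floor in naive cells and 9 on the activated-labelled arrays. By the row that represents each gene, none was 2-fold apart between genotypes, against the same shares of 2.83% and 4.60%. Cdc42 row AK168503, which represents the gene, read 1366 (wild type) and 1601 (miR-7 deficient) on the activated-labelled arrays, a log2 difference of 0.23. Its row AK150563 read 1489 and 3123 there, both above the floor, a difference of 1.07, past 2-fold. Row L78075 read 4722 and 6515, and row BC064792 read 1083 and 653, a difference of -0.73. The Cdc42 rows thus gave no common direction. Pak2, the PAK of most tissues and of lymphocytes, read 1210 and 1508 in naive cells, a log2 difference of 0.32, while Pak1 was at background there. Rac2, the Rac of blood cells, read 1956 and 3141, a difference of 0.68, and both values on the activated-labelled arrays (323 and 275) were below the floor. Pak3, a PAK of neurons, had no naive value above the floor. Among the activated-labelled arrays its row U39738 read 775 and 1214, both above the floor, a log2 difference of 0.65. Its row AK031853 read 797 and 345 there, the second below the floor, so the 2 Pak3 rows stood in opposite order.

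The proteasome activators around Psme3 held the 1 gene past 2-fold among the 20 pathway genes above a naive floor, a count to be read against 2.83% of all genes above one. Psme1, the alpha subunit of the PA28 cap that interferon induces, read 1256 (wild type) and 3052 (miR-7 deficient) among the naive arrays, a log2 difference of 1.28. Psme2, the beta subunit of the same cap, read 2114 and 3794, a difference of 0.84. The gamma subunit Psme3, which forms a separate cap, had a difference of 0.48 in the same direction. Summed markers of other leukocytes were also higher in the miR-7 deficient naive array, at 16626 and 26812 for B cells and 4527 and 7661 for myeloid cells. With no floor applied, 7 B cell markers were higher and 2 lower, and 9 myeloid markers were higher and 4 lower. The largest rises in the myeloid sum were those of the neutrophil genes S100a9 (804 and 2563, at least 2.61-fold apart) and S100a8 (347 and 1210). Adgre1 (629 and 626) and Fcgr3 (437 and 416) were not higher. The part of these cells in the PA28 differences was not tested. On the activated-labelled arrays Psme1 read 843 and 814, a log2 difference of -0.05. Psme2 read 704, below the wild type floor, and 628, a difference of -0.16 with no floor applied. The other caps, Psme4 and the inhibitor Psmf1, were below the floor on all 4 arrays.

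In the KLF family 12 of 16 genes had a row and Klf6, a zinc finger factor of many cell types, was the member above a floor. It read 1748 and 2970 in naive cells, a log2 difference of 0.76, and 661 and 831 on the activated-labelled arrays. The other 11, like Klf4, were below the floor everywhere.

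A further list held 19 other genes that published work has reported as miR-7 targets, and all had a row. In naive cells 1 of them was above the floor, Mknk2, a kinase of the translation initiation factor eIF4E, at 2578 (wild type) and 2160 (miR-7 deficient), a log2 difference of -0.26. On the activated-labelled arrays 3 were above a floor and 0 of the 3 were 2-fold apart, against 4.60% of genes. Their median was 0.09, beside 0.00 over the 5721 genes above a floor there. It is the bound of Mtor, which, like that of Mapk4, could take 1 sign only. Keap1, the cytoplasmic inhibitor of the antioxidant factor Nrf2, read 1641 (wild type) and 1939 (miR-7 deficient) there, a difference of 0.24. Over all 19 without a floor, 11 were higher and 8 lower in naive cells (median 0.04, beside 0.04 over all genes), and 12 higher and 7 lower on the activated-labelled arrays (median 0.18, beside -0.01).

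**Figure D5:**
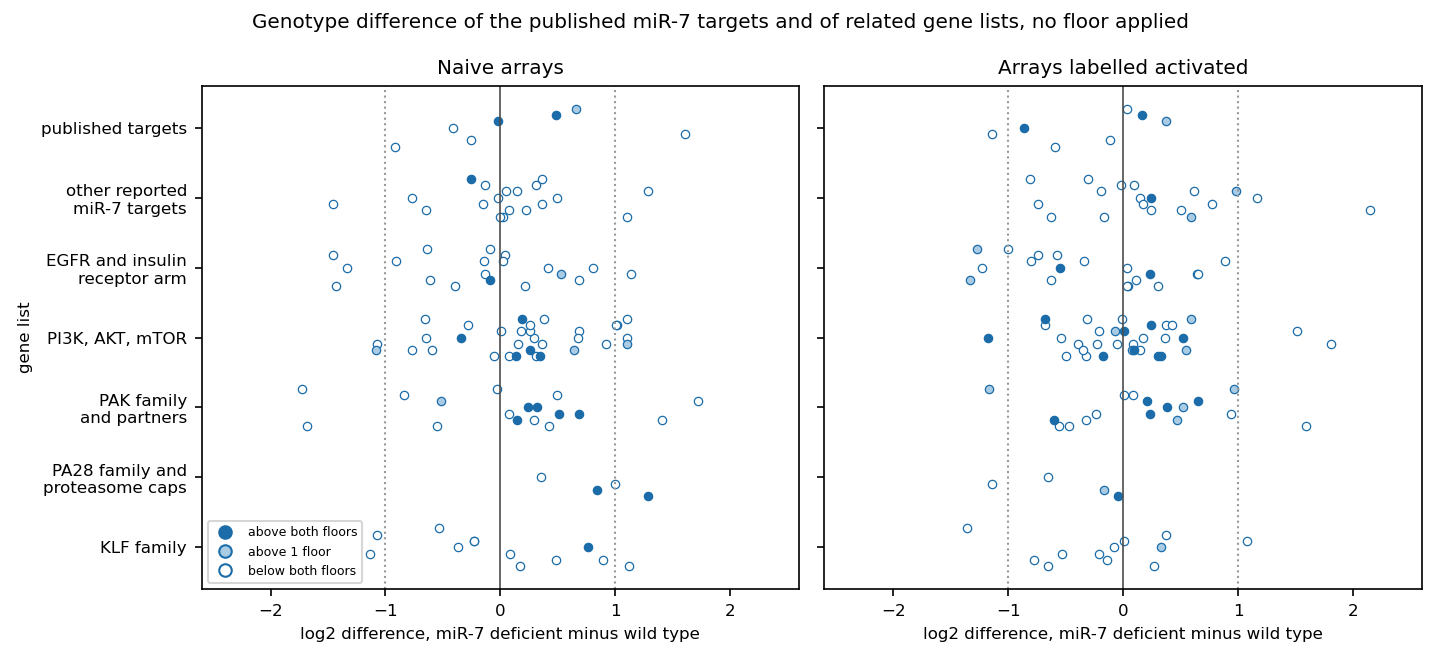
Log2 difference, miR-7 deficient minus wild type, of the 7 measured published targets and of 6 related gene lists, between the naive arrays (left) and between the activated-labelled arrays (right), with no floor applied; each point is 1 gene, filled above both floors, pale above 1, open below both, and dotted lines mark 2-fold. Filled points past 2-fold are Psme1 (1.28) among the naive arrays and Gsk3b (-1.18) among the activated-labelled arrays.

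Psme3 row BC015255 was the member row above the floor on all 4 arrays, so its pattern could be set against that of other genes. Among 1192 other genes above every floor, predicted and unnamed ones left out, the smallest Euclidean distances between log2 profiles centred on their own mean were those of Tmem67 (0.06), Neat1 (0.07) and Ccdc71l (0.08), over the 4 arrays. The likeness is a description over 4 arrays and holds for that row alone. Psme3 row BC139818 read 219 on the naive and 803 on the activated-labelled array of the wild type, a different pattern.

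Where a member had several rows, the row that ended furthest in the 3' direction was the brightest for Pak1 and Psme3, and for Pik3cd and Rps6kb1 it was among those ending within 100 bases of the furthest. The Pik3cd row U86587 ends there as well and was dim. Across the array, 1368 genes had a row above a floor and rows whose 3' ends lie at least 1 kb apart, and in 63.4% of them the brightest row was one that ended furthest 3'. Rows ending there made up 46.8% of the rows, averaged over these genes. Signals of different probe sets are not comparable as levels of the gene, and each row is therefore given on its own above.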

How the data were processed

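RNA of 4 samples was measured on 1-colour arrays. The authors normalized the arrays with RMA (version not given in the sources used here), per the submitters' processing notes. The deposited intensity values range from 21.7 to 64873, a linear scale, although a file header calls them log2. Each comparison table of the authors also holds a fold ratio, larger over smaller: all 283288 intensities (relative tolerance 1e-06) and 141644 ratios (1e-05) matched the value table, and no deposited ratio is quoted. Unnormalized intensities were not used here. The number of arrays limits the precision. The growth and treatment protocols in the labels are about bacteria, so the cells are known from the other labels.

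Symbols were updated by gene number through RefSeq (GRCm38.p6), which matched 31529 of the 33663 named rows; 1748 rows without a name were left out of gene counts. Values below a floor were raised to it. A difference with neither side above its floor, or whose bound pointed the other way, was taken as 0. Row strand came from RefSeq. Genes named are all 8 members, pathway genes past 2-fold or, in lists with none, those with the largest measured differences, and further list members chosen after their values were seen. A gene of the lists is not reported here and was left out of their counts. The members and lists were chosen with earlier results of these data known. Alternatives were no floor, floors at the 99th and 75th percentile, centring, removal of a lowess trend (fraction 0.3), quantile normalization of a pair alone, and the mean of log2 values over a gene's rows. The steps were tested on simulated data. Python 3.11.15, numpy 2.4.6, pandas 2.3.3, statsmodels 0.14.6 and matplotlib 3.10.9 were used.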

Additional observations from a re-analysis of the deposited data

Results flagged for a closer look

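In 3 rows the genotype difference took opposite signs in the 2 states, each by more than the pooled SD between rows of a gene above both floors (0.34 and 0.35). With 1 array per group the difference between the states was not tested. Below both floors that SD was 0.73 and 0.67, which is more than the differences of the Pak1 and Psme3 rows. Klf4 row BC010301 had log2 differences, miR-7 deficient minus wild type, of 1.61 in naive cells and -1.14 on the activated-labelled arrays, with all 4 values below the floor, so that neither is a measured size. Pak1 row AK078711 had -0.49 and 0.57, also below every floor, while the bright Pak1 row was at background in naive cells and had -0.86 on the activated-labelled arrays. Psme3 row BC139818 had 0.41 and -0.50, with the wild type activated-labelled array alone above its floor, while the bright Psme3 row had 0.48 and 0.17.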

How the results depend on the processing

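No paired analysis was possible because each group has 1 array. Values of single genes were followed for members above a floor alone, and none past 2-fold changed sign under any alternative run. Those past 2-fold were the state differences of Pak1 in wild type and of Pik3cd in both genotypes. That of Pak1 was 0.00 with the floor at the 99th percentile. Pathway genes such as Psme1 and Gsk3b entered as counts alone. The counts rested on the floor. Without one, 1 of 7 members was 2-fold apart between naive genotypes and 1 between the activated-labelled arrays (Klf4 in each), 1 had differences that far apart between states, and 2 were apart between states in miR-7 deficient; pathway genes 2-fold apart between genotypes numbered 20 and 14 of 100 in place of 1 and 1, while 16.7% and 12.9% of all genes were so. With the floor at the 99th percentile the pathway counts were 0 and 0, the members' median between the activated-labelled arrays was -0.67 (Pak1 alone), and 0 members were apart between states in either genotype. With the floor at the 75th percentile the naive median of the members was 0.48, the pathway counts were 7 of 65 and 6 of 77 beside 6.87% and 6.94% of all genes above those floors, and 2 members were apart between states in miR-7 deficient. When the rows of a gene were averaged on the log2 scale no member was above a floor, which leaves no value, and 0 pathway genes were 2-fold apart between the activated-labelled arrays. Centring, trend removal and normalization of the pair alone moved no count of members or pathway genes by more than 1.5 times and no median by more than the pooled SD between rows. Signal over background is the limit: 9 of 15 member rows were below every floor, so a genotype difference in Egfr, Irs1 or Klf4 was not detectable here.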
